A study of Mus musculus with 17 samples.

Results

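The carriers that take bile acids and other organic anions from the blood into hepatocytes were compared between Lean and Fat mouse lines in liver. They were chosen by name: Slco1a4, Slco1a1, Slco1b2 and Slc10a1, which are 4 of the 278 gene names on the array and account for 5 of its 284 mouse gene probes, Slc10a1 having 2 probes that were kept apart. Lean and Fat are inbred lines from 1 base population (genetic background CBA, JU and CFLP), bred apart over more than 60 generations for low or high body fat percentage. Livers came from 10 Lean and 10 Fat males, aged 14 weeks and killed after a fast of 4 hours, with no other treatment in either line, and each line stands for its own fixed genome as well as for its fatness. RNA of 1 Lean and 1 Fat mouse, each marked with Cy3 or Cy5, was hybridised together on Steroltalk v2, a two-colour cDNA array of metabolic genes. The 17 arrays held 10 such pairs, 7 of them in both dye orientations (a dye swap) and 3 in a single one.

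Hepatocytes face the blood with their basolateral membrane and the bile canaliculus with their apical one. Slc10a1 encodes NTCP, the sodium-driven carrier for conjugated bile acids such as taurocholate. The Slco genes encode the sodium-independent organic anion transporting polypeptides (OATPs): Slco1b2 (OATP1B2) is the rodent liver carrier of the OATP1B type and takes up bile acids, bilirubin and drugs, whereas Slco1a1 (OATP1A1) and Slco1a4 (OATP1A4) carry bile acids, steroid conjugates and xenobiotics, and Slco1a4 is a target of the pregnane X receptor in rodents. In mouse liver Slco1a1 is known as a male-predominant gene and Slco1a4 as a female-predominant one.

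In the RefSeq annotation the 3 Slco members are neighbours on chromosome 6, in the order Slco1c1, Slco1b2, Slco1a4, Slco1a1, Slco1a6 and Slco1a5, and Slc10a1 lies on chromosome 12. The 300 bases around the start of each gene (most of them before it; RefSeq, build GRCm38.p6, 5′ to 3′ on the gene's own strand) are shown so that members whose ratio passed the test can be read beside those whose ratio did not. Slc10a1 has 2 annotated starts. Only the one nearest the outer end of the gene is shown, and the other was not searched. Capitals mark the nuclear receptor half-site AGGTCA and the HNF1 half-site GTTAAT, on either strand, which do not overlap here.
Slco1a4 (chr6:141856171-141856470, minus strand): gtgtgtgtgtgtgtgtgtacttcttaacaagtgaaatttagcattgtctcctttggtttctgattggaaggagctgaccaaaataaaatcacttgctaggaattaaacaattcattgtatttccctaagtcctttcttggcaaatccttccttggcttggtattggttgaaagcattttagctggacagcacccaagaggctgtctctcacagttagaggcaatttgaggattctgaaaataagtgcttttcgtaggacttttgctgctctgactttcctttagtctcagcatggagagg
Slco1a1 (chr6:141946913-141947212, minus strand): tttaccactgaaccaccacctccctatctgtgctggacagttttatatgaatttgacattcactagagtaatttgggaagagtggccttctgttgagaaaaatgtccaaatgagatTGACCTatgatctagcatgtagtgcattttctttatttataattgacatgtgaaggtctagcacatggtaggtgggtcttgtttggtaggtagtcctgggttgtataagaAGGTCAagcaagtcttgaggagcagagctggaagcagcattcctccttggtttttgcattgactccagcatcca
Slco1b2 (chr6:141629268-141629567, plus strand): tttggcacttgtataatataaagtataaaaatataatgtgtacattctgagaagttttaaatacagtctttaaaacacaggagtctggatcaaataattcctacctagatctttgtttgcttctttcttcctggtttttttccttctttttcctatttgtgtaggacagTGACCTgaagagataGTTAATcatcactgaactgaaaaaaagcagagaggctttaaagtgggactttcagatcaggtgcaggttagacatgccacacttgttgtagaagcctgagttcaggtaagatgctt
Slc10a1 (chr12:80968656-80968955, minus strand): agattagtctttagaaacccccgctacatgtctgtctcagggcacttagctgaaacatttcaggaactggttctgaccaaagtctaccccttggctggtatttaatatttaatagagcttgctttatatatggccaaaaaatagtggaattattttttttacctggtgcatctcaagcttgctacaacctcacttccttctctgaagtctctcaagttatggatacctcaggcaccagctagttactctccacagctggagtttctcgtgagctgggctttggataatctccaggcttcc
AGGTCA was found at 2 places before the start of Slco1a1, at 1 place before that of Slco1b2, and in neither of the other windows. It occurs in 16.3% of 32851 promoter windows of this length. GTTAAT was found once, before the start of Slco1b2, and occurs in 7.10% of those windows. No match means only that these letters are not in the window, and a match is not a bound site. The windows of the 4 members resembled each other little, with no shared run above 9 bases, whereas the Slco1a4 window aligned with that of a start of Slco1a5 over 247 columns with 72.1% identity and shared a run of 20 bases with it (ggcttggtattggttgaaag).

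Gene spots above background in both channels made up 34.9% to 78.8% of the 855 gene spots of an array (median 58.5%). Above background means a foreground more than 2 standard deviations of the local background over it. Across all 284 probes, the ratios of both arrays of a swapped pair had a Pearson correlation of only -0.02 to 0.41. Arrays of the same 2 mice thus agreed little over the whole array, which limits each pair ratio. Hepatocyte markers were above background on 17 of 17 arrays in either channel for 6 of 6 genes, and Msr1 of macrophages on at most 2 arrays. Adipoq of adipocytes was above background on 12 Lean and 11 Fat channels with a log2 ratio of 0.01 (adjusted p = 0.917, limma). The other adipocyte markers, Lep and Retn, were above background on 3 to 5 arrays, and the 4 endothelial markers on 1 to 15. None of these marker genes passed the adjusted threshold in limma, with 0 at an unadjusted p under 0.05, and their part in the ratios below was not tested. In a bulk sample fewer hepatocytes and less RNA per hepatocyte cannot be told apart.

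The array of pair 2 with Lean RNA in Cy3 stood apart from the other 16. On it, 137 spots had a local background over 10 times the median background of the array, against 0 to 4 spots on each other array, and 50 of them had a background at the scanner's ceiling. Of the carriers, 1 of the 3 Slco1a1 spots and 1 of the 3 spots of the first Slc10a1 probe lay among them, each with foreground and background in the Fat channel both at that ceiling. The log2 ratios of these single spots were 4.96 and 4.35, while the other 2 spots of each probe on the array lay at -0.09 and -0.10 for Slco1a1 and at -0.23 and -0.23 for Slc10a1. No spot of Slco1a4, of Slco1b2 or of the second Slc10a1 probe lay among them, though leaving out such spots also changes the spike-in fit and moved the pair 2 ratio of Slco1a4 from -0.13 to -0.39. Values are given for all spots and, where it matters, again without all spots of such background, spike-ins included, a choice made after the data were seen.

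Ratios are log2 of Lean over Fat, so that values below 0 mean more signal in Fat. Slco1a4 was higher in Fat in 10 of 10 pairs (9 of 10 in the authors' value table, where pair 9 stood at 0.0070), and Slco1a1 in 9 of 10 pairs with all spots and in 10 of 10 without the spots of high background. Slco1b2 was higher in Fat in 7 of 10 pairs without passing the adjusted threshold, and neither Slc10a1 probe passed it over the 10 pairs. Over the whole array, limma called 10 of 284 probes (3.52%) at an adjusted p under 0.05 and 2 (0.704%) as lower in Lean, of which Slco1a4 was 1 and complement gene C9 the other. The mean ratio was below 0 for all 5 carrier probes and for 30.6% of all probes, and the median over all probes was 0.04. Since the genes were chosen with earlier results of these arrays known, these counts describe the carriers and do not test them as a set.

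**Figure D1:**
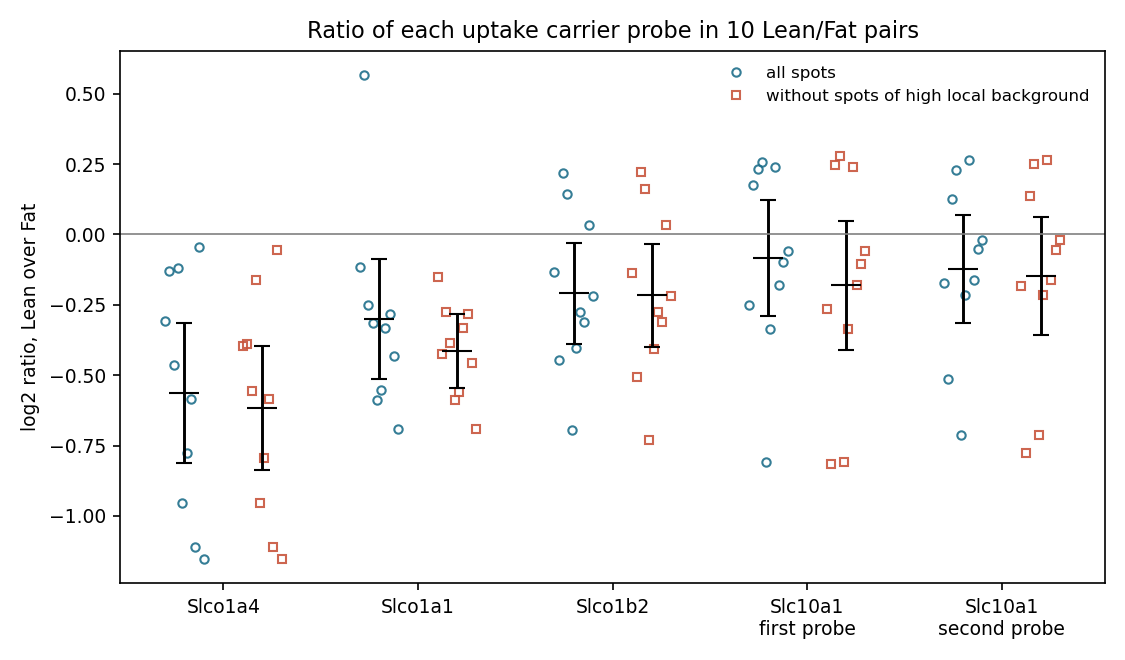
Log2 ratio of Lean over Fat (vertical axis) of each carrier probe in the 10 pairs, with all spots (blue circles) and without spots of high local background (red squares). Black bars give the mean and its 95% confidence interval; for Slco1a1 the blue circle at 0.57 is pair 2, which lies at -0.42 among the red squares.

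Slco1a4 had ratios of -0.31, -0.13, -0.46, -0.12 and -0.95 in pairs 1 to 5. In pairs 6 to 10 they were -0.78, -0.58, -1.11, -0.05 and -1.15. All were below 0, those of pairs 2, 4 and 9 only slightly and those of pairs 5, 8 and 10 by about 1 log2 unit. The mean was -0.56 (SE 0.12, 95% confidence interval -0.81 to -0.32), or 1.48-fold more in Fat (1.24 to 1.76), with an adjusted p of 0.0132 in limma. It was the third lowest mean of the array. An exact two-sided sign-flip permutation test over the 10 pairs gave p = 0.00195, the smallest that 10 pairs allow. Only 2 probes (0.704%) were below 0 in 10 of 10 pairs. Without the spots of high background the mean was -0.62 (adjusted p = 0.00102).

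The sign of the Slco1a4 ratio was the same on each array taken alone, as 17 of 17 arrays had a ratio below 0. That of pair 9, at -0.05, was the nearest to 0. Most Lean spots of the probe were above background on only 12 of the 17 arrays. In the 7 swapped pairs the mean was -0.64 ± 0.53 (SD) with Lean in Cy3 and -0.60 ± 0.31 with Lean in Cy5, and the arrays of a pair had the same sign in 7 of 7 pairs. The pairs lay on slides of 2 barcode series, with a mean of -0.38 ± 0.36 (SD, n = 5) in one and -0.75 ± 0.42 (n = 5) in the other. These ranges overlapped, and the difference between the series was not tested. Within one series or the other, the adjusted p was 0.259 and 0.0683, so neither series passed the threshold alone.

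Slco1a4 gave the weakest signal of the carrier probes over its local background. Foreground over background ranged from 1.39 to 5.42 (median 2.27) in the Lean channel and from 1.64 to 10.997 (median 3.26) in the Fat channel. Most of its spots were above background on 12 of 17 arrays for Lean and on 17 of 17 for Fat, that is 36 against 51 of 51 spots. The normalised log2 level was 8.06 ± 0.67 (SD, n = 10) in Lean and 8.63 ± 0.43 in Fat. Lean levels ran from 7.24 to 9.25 and Fat levels from 7.82 to 9.37. These levels were normalised within arrays but not between them. For the Lean mouse of pair 2 they were 10.24 with Lean in Cy3 and 7.31 with Lean in Cy5. Their spread thus includes differences between arrays, and whether the lines overlap cannot be read from it. The size of the ratio moved with the background correction while its direction did not. It was -0.56 with normexp at an offset of 50, -0.76 at an offset of 0 and -1.10 by plain subtraction, where values of 0 or less were left out.

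**Figure D2:**
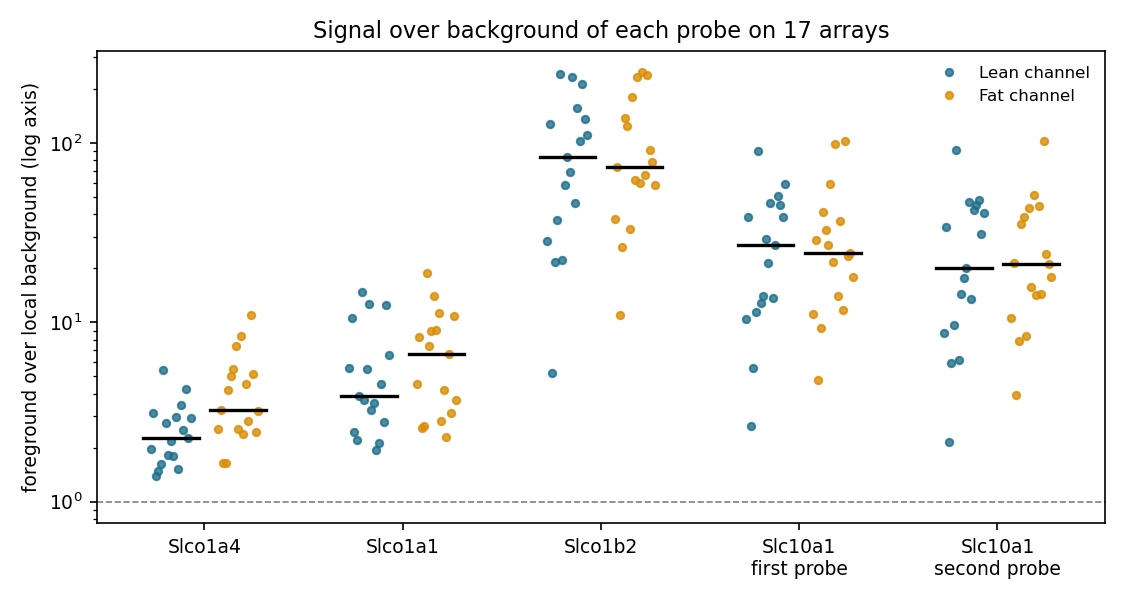
Foreground over local background (log axis) of each carrier probe on the 17 arrays, in the Lean channel (blue) and the Fat channel (orange). Black lines are medians; the median of Slco1a4 was 2.27 in Lean and 3.26 in Fat, and brightness of different probes does not rank their transcripts.

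Slco1a1 had ratios of -0.11, 0.57, -0.25, -0.32 and -0.59 in pairs 1 to 5. In pairs 6 to 10 they were -0.55, -0.33, -0.28, -0.43 and -0.69. Pair 2 was the only one above 0, and it holds the spot at the scanner's ceiling. The mean was -0.30 (SE 0.10, 95% confidence interval -0.51 to -0.09), or 1.23-fold more in Fat, with an adjusted p of 0.183 in limma and an unadjusted p of 0.00965, which 5.28% of probes passed in this direction at 0.05. The exact sign-flip test gave p = 0.0312.

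Without the spots of high background the Slco1a1 ratio of pair 2 was -0.42 and the other pairs ran from -0.69 to -0.15. All 10 were then below 0, as for 1.41% of probes, and their standard deviation fell from 0.35 to 0.16. The mean was -0.41 (SE 0.06, 95% confidence interval -0.55 to -0.28), or 1.33-fold more in Fat, with an adjusted p of 0.000632 in limma. The exact sign-flip test gave p = 0.00195. With those spots left out limma called 15 of 284 probes, 6 of them lower in Lean (2.11%), among them Slco1a4 and Slco1a1. Slco1a1 passed the threshold under 9 of 26 alternatives, among them the methods' t-test, which was judged by its unadjusted p (0.0245). The median of the 3 spots in place of their mean gave -0.38 (adjusted p = 0.00134), and leaving out the whole of pair 2 gave -0.40 (adjusted p = 0.00224). Among those under which it did not pass, with the spots kept, median centring gave -0.20 (adjusted p = 0.511), the 7 swapped pairs gave -0.22 (0.605) and pixel medians gave -0.36 (0.0686). In the authors' value table, normalised log2 ratios in which pair 2 stood at -0.42, the mean was -0.44 (adjusted p = 0.00158).

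The dye orientation moved Slco1a1 more than Slco1a4. With Lean in Cy5, the 7 swapped pairs had a mean ratio of -0.55 ± 0.24 (SD), and with Lean in Cy3 a mean of 0.11 ± 0.74, or -0.19 without the spots of high background. Of the 7 pairs, 4 had the same sign in both orientations with all spots and 5 without. Pairs 1 and 8 had positive ratios with Lean in Cy3, at 0.46 and 0.22. Signal over background ranged from 1.95 to 14.8 (median 3.86) in Lean and from 2.28 to 18.9 (median 6.66) in Fat, and most spots of the probe were above background on 17 of 17 arrays in both. The slide series gave means of -0.38 and -0.45 without the spots of high background.

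Slco1b2, with the brightest of these probes, had a mean ratio of -0.21 (SE 0.08, 95% confidence interval -0.39 to -0.03). Its ratios were -0.14, -0.45, 0.22, 0.14 and -0.69 in pairs 1 to 5. The values of pairs 6 to 10 were -0.40, -0.28, -0.31, 0.03 and -0.22. Pairs 3, 4 and 9 were thus above 0 and the other 7 below. The unadjusted p was 0.0252 and the adjusted p 0.239 in limma, and the exact sign-flip test gave p = 0.0449, or 0.0508 without the spots of high background. Foreground over background had medians of 83.9 in Lean and 73.6 in Fat, with no value under 5.21. Both dye orientations lay close together here, with swapped means of -0.26 ± 0.33 and -0.32 ± 0.31 (SD) and the same sign in 6 of 7 pairs, and the slide series had means of -0.20 and -0.21.

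Slc10a1 was read by 2 probes. The first had a mean ratio of -0.08 (SE 0.10, 95% confidence interval -0.29 to 0.12, adjusted p = 0.726) and the second of -0.12 (SE 0.09, -0.31 to 0.07, adjusted p = 0.577). Leaving out the spots of high background put them at -0.18 (SE 0.11, -0.41 to 0.05, adjusted p = 0.541) and -0.15 (SE 0.10, -0.36 to 0.06, adjusted p = 0.632), with 7 of 10 pairs below 0 for each. Neither passed the threshold over the 10 pairs, but these last intervals still allow up to 1.33-fold and 1.28-fold more in Fat. With all spots the first probe ran from -0.81 in pair 5 to 0.26 in pair 4, with 6 of 10 pairs below 0. The second ran from -0.71 in pair 5 to 0.26 in pair 7, with 7 of 10 below 0. Their median signal over background was 27.1 and 20.0 in Lean and 24.3 and 21.1 in Fat.

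Both Slc10a1 probes depended on the dye. The first averaged 0.27 with Lean in Cy3 and -0.53 with Lean in Cy5 over the 7 swapped pairs, and had the same sign in 3 of them. The second averaged -0.0015 and -0.39, with the same sign in 5. Without the spots of high background the first probe averaged -0.01 and -0.54, and its ratio was lower with Lean in Cy5 in 7 of 7 pairs. The median shift of all probes went the other way, at 0.20 higher with Lean in Cy5 for all spots and 0.30 higher without those of high background. In the 3 pairs with a single orientation this dye effect does not average out.

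**Figure D3:**
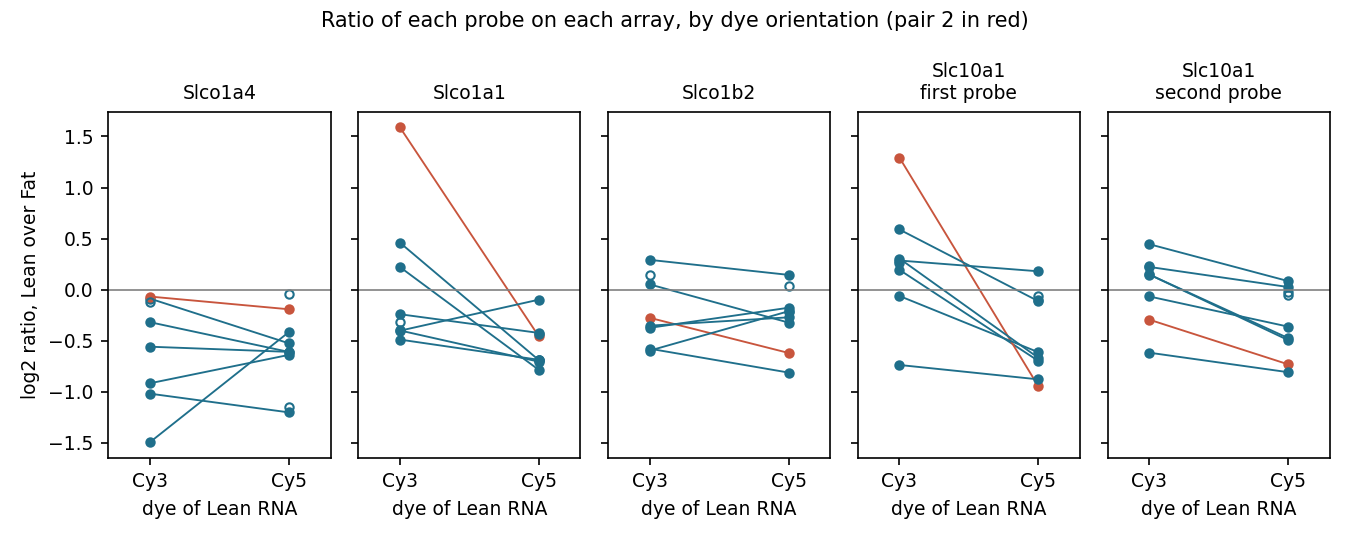
Log2 ratio of Lean over Fat (vertical axis) of each carrier probe on each array, by the dye that marked the Lean RNA. Lines join both arrays of a swapped pair, open circles are pairs with a single orientation and pair 2 is red; Slco1a4 stays below 0 on 17 of 17 arrays, while the first Slc10a1 probe falls from a mean of 0.27 to -0.53.

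The 2 probes of Slc10a1 gave a check on the pair ratios, since they measure the same gene. With all spots their pair ratios had Pearson's r = 0.73 and Spearman's rho = 0.81 (permutation p = 0.0152 and 0.00745, adjusted over 10 relations 0.0758 and 0.0745). Pair 2 stood at 0.17 in the first probe and at -0.51 in the second. Without the spots of high background pair 2 lay at -0.81 and -0.78, and r was 0.99 and rho 0.96 (permutation p = 2.00e-05 and 9.00e-05, adjusted 0.000200 and 0.000900), and r was 0.98 without the 2 pairs farthest from the median. Both probes then gave nearly the same ratio in each pair, above 0 in some pairs and below it in others.

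**Figure D4:**
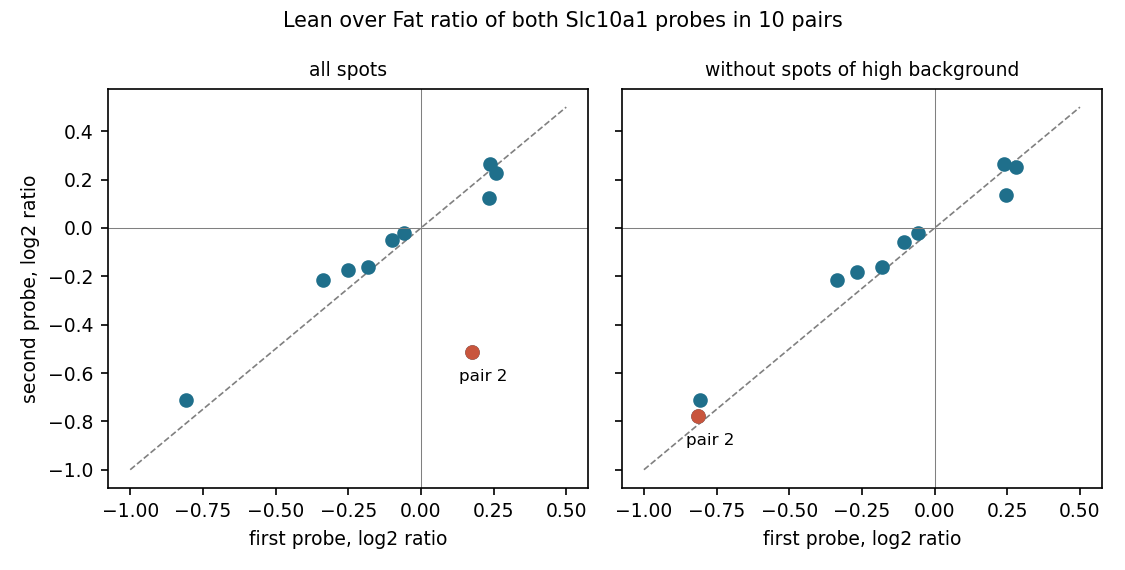
Log2 ratio of Lean over Fat of the first (horizontal axis) and the second Slc10a1 probe (vertical axis) in 10 pairs, with all spots (left) and without spots of high local background (right). The dashed line marks equal ratios; pair 2 (red) moves from 0.17 to -0.81 on the horizontal axis and joins the other 9.

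Among the other relations, Slco1b2 went with both Slc10a1 probes over the pairs without the spots of high background. For the first probe r was 0.83 and rho 0.83 (permutation p = 0.00365 and 0.00470, adjusted 0.0182 and 0.0235), and r was 0.69 without the 2 farthest pairs. For the second probe r was 0.79 and rho 0.72 (permutation p = 0.00746 and 0.0241, adjusted 0.0249 and 0.0802), and r was 0.67 without them. With all spots neither passed, at adjusted p of 0.115 and 0.0758 for r, and r to the first probe fell to 0.24 without the 2 farthest pairs. Slco1a4 did not go with Slco1a1 beyond what permutation gave (r = 0.56, adjusted p = 0.177, or r = 0.40, adjusted p = 0.427 without the spots of high background; rho = 0.49 and 0.31). All pairs of probes share the offset of their arrays, and the median r between any 2 of 184 probes above background on most arrays was 0.22.

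With all spots Slco1a4 was lower than Slco1a1 in 8 of 10 pairs, by 0.27 ± 0.37 (SD) on the log2 scale. It was lower than Slco1b2 in 9 and than the first and the second Slc10a1 probe in 9 and 8. Without the spots of high background Slco1a4 lay at -0.39 in pair 2, no longer below Slco1a1 (-0.42) or the first Slc10a1 probe (-0.81). The mean ratios of Slco1a4 and Slco1a1 were then -0.62 and -0.41. These differences between probes were not tested. The probes whose pair ratios were most like those of Slco1a4 were Abcc2, an exporter of the canalicular membrane (r = 0.80), Cyp27a1, a sterol hydroxylase (r = 0.79), and Cyp4b1 (r = 0.77), against a median of 0.26 over 179 probes. These r were 0.74, 0.74 and 0.73 without the spots of high background. None of the 3 genes passed the threshold, with mean ratios of 0.08, -0.02 and 0.01. For Slco1a1 the leading probes were Gapd, Abcb4 and Ebp at r of 0.90, 0.88 and 0.88. Without the spots of high background these fell to 0.52, 0.55 and 0.39.

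Of the 4 other uptake carriers of these families, 3 were not above background on most arrays. Slco1a5, a relative with a start that resembles that of Slco1a4, was above background on 6 Lean and 5 Fat channels of 17, with a ratio of 0.01. Another start of Slco1a5 aligned with that of Slco1a4 over only 11 columns, with a longest shared run of 8 bases. Slco1c1, a thyroxine carrier of the brain, was above background on 0 and 1, and Slc10a2, the ileal bile acid carrier, on 3 and 4. Only Slco2b1, a further liver OATP, was seen on most arrays (15 and 17), with a ratio of -0.09 (adjusted p = 0.436). None of the 4 passed the threshold in limma, with 0 at an unadjusted p under 0.05, and their median was -0.01. Whether cDNA probes of the closely related Slco1a genes also bind each other's transcripts was not tested.

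Export and synthesis stood beside uptake as follows. Over the whole array 2.82% of probes were called higher in Lean. Of 8 exporters 1 rose, Abcb11, the bile salt export pump, at 0.57 (SE 0.09, adjusted p = 0.00187), higher in Lean in 10 of 10 pairs. It was thus the opposite of Slco1a4 in sign, and the median of the 8 was -0.09. Abcg5, of the sterol exporter, was lower in Lean at an unadjusted p of 0.0402 only (-0.24, adjusted p = 0.316). Of 7 genes of bile acid synthesis 1 rose, Cyp8b1, the 12-alpha-hydroxylase of cholic acid synthesis, at 0.52 (adjusted p = 0.00208, 10 of 10 pairs), with a median of 0.02 for the list, read against the same 2.82%.

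Among genes known to act on transcription of the carriers, 0 of 14 passed in limma, and their median was 0.01. Their probes were above background on anything from 0 to 17 arrays in either channel. For the dimmest of them, a ratio near 0 does not show equal levels. At an unadjusted p under 0.05 there was 1, Nr5a2, higher in Lean at 0.13 (adjusted p = 0.239), against 9.86% of all probes. The largest absolute ratio was that of Nr3c1, the glucocorticoid receptor, at 0.16 (adjusted p = 0.440), above background on only 9 of 17 arrays in each channel. It fell to 0.06 without the spots of high background, where Nr1i3, the receptor CAR, had the largest at -0.16 (adjusted p = 0.654). Of 7 targets of the receptors CAR and PXR, 0 passed with all spots, with 3 lower in Lean at an unadjusted p under 0.05 (5.28% of all probes), and the median was -0.18. The lowest was Cyp3a41, a female-predominant P450, at -0.45 (adjusted p = 0.214). Without the spots of high background Cyp3a41 passed, at -0.50 (adjusted p = 0.0498), where 2.11% of all probes were called lower in Lean. Of 6 genes known to be higher in female mouse liver 0 passed with all spots. At an unadjusted p under 0.05 there were 4 lower in Lean, against 5.28% of all probes, and 1 higher, Cyp2c40. Their median was -0.28. Without the spots of high background 2 passed as lower in Lean, against 2.11% of all probes. These were Cyp3a41 and Cyp2b9, each at an adjusted p of 0.0498 in limma. Cyp2b9 was above background on only 5 of 17 arrays in the Lean channel and on 12 in the Fat channel. Its ratio thus rests on dim Lean spots, while Cyp3a41 was above background on 17 of 17 in both channels. P450 genes of these families are close in sequence. The authors state that the Cyp2a, Cyp2b, Cyp2c and Cyp3a probes cross-react with other members of their families, which was not tested here. Cyp3a41 and Cyp2b10 are also in both the CAR and PXR list and the female-higher list. The counts of these lists therefore do not stand for separate genes. Among 12 acute phase and IL6 signalling genes 1 rose in Lean with all spots, against 2.82% of all probes. It was Crp, C-reactive protein, at 0.23 (adjusted p = 0.0307), and the list median was 0.09. At an unadjusted p under 0.05 there were 5, of which 4 were higher in Lean, against 9.86% of all probes. Without the spots of high background 2 rose, Crp and the hemopexin gene Hpxn (0.28, adjusted p = 0.0470), against 3.17% of all probes.

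**Figure D5:**
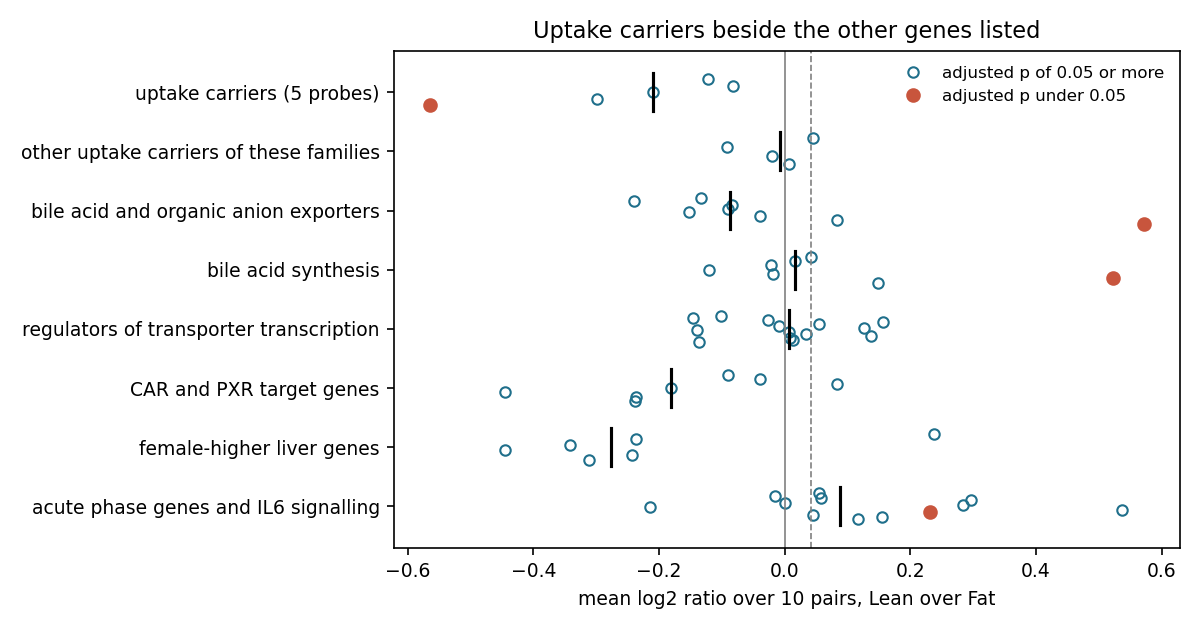
Mean log2 ratio of Lean over Fat over 10 pairs (horizontal axis, all spots) of the 5 carrier probes and of each list of genes, 1 circle per probe, filled where the adjusted p was under 0.05. Black lines are list medians, the dashed line is the median of all probes at 0.04; among the carriers only Slco1a4 at -0.56 is filled.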

How the data were processed

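The authors measured foreground and local background intensity of every spot in Array-Pro Analyzer and deposited both without normalization. Their value table holds deposited log2 ratios (Orange, LOWESS on spike-ins, poor spots removed) and was tried as an alternative. Here intensities were corrected by normexp (offset 50) and each array by LOWESS (span 0.3) on luciferase and calibration spike-ins. Spots, then dye-swap arrays, were averaged to 10 pair ratios, numbered in the order of deposition. Means were compared with 0 in limma (version 3.58.1, R 4.3.3), two-sided, adjusted by Benjamini-Hochberg over 284 probes at 0.05. The steps were run on simulated data whose dye effect depended on signal level alone. That run does not cover dye shifts of single probes, as seen for Slc10a1. The number of arrays limits the precision. Relations used 100000 permutations. Members, lists and tests were chosen with earlier results of these data known. Named genes are all members, each list's genes past the threshold or with the largest absolute ratio, the 3 probes most like Slco1a4 and Slco1a1, relatives on the array and cell type markers. C9, Abcg5, Nr1i3, Nr5a2, Cyp2c40, Cyp2b9, Cyp2b10 and Hpxn were named after their values were seen. Plasma, muscle and qRT-PCR data were not used here.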

Additional observations from a re-analysis of the deposited data

Results flagged for a closer look

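The Slco1a1 ratio of pair 2, at 0.57, lay far above the other 9 pairs, which ran from -0.69 to -0.11. Its gap to the nearest pair, divided by the whole range, was 0.54, above Dixon's critical value for 10 values, which chance passes in about 1 of 20 groups. The other 4 carrier probes had no such value. On the 2 arrays of pair 2 the Slco1a1 ratio was 1.59 with Lean in Cy3 and -0.46 with Lean in Cy5. On the first of these arrays, the 2 spots not at the scanner's ceiling lay at -0.09 and -0.10. The ratio of that array became -0.39 when all its 137 spots of high background were left out, which also changed the spike-in fit.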

How the results depend on the processing

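Slco1a4 was below 0 under each of 26 alternatives (-1.10 to -0.38) and past the threshold under 21. These include the methods' t-test without correction, which was judged by its unadjusted p. Slco1a4 missed the threshold without normalization (-0.52), with Lean in Cy3 only (-0.57), in either slide series (-0.38 and -0.75) and with the methods' t-test after Benjamini-Hochberg (-0.56). Slco1a1 passed under 9 of the 26: by plain subtraction (-0.60), without background correction (-0.44), in the value table (-0.44), without dim spots (-0.38), with Lean in Cy5 only (-0.55), by the median of spots (-0.38), by the methods' t-test unadjusted (-0.30), without the pair 2 array of highest background (-0.40) and without the spots of high background (-0.41), and was 0.053 with Lean in Cy3 only. It was weakest below 0 without normalization (-0.13), in one slide series (-0.16), with median centring (-0.20) and in the swapped pairs (-0.22). Slco1b2 passed only the unadjusted t-test (-0.21), was 0.0072 without normalization, and moved to -0.43 with ratio controls added (adjusted p = 0.09998), -0.06 with median centring and -0.13 at a span of 0.75. The first and second Slc10a1 probe turned above 0 with median centring (0.039 and 0.021), without normalization (0.11 and 0.091) and with Lean in Cy3 only (0.27 and 0.027), passed with Lean in Cy5 only (-0.43 and -0.31), and were 0.012 (first, subtraction floored at 10) and 0.019 (second, one slide series). The cause was not tested. The median of all probes moved from 0.04 to -0.07 with Lean in Cy3 only and to 0.15 with Lean in Cy5 only.

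The 10 calls (8 higher, 2 lower) became 6 by plain subtraction and when floored at 10 (3 and 3 each), 5 with median centring (3 and 2), 1 without normalization (1 and 0), 5 in the swapped pairs, 5 with Lean in Cy3, 53 with Lean in Cy5, 3 and 2 in the slide series, 18 with array weights, 15 without background correction (8 and 7), 15 with the replicate block (11 and 4), 35 by the t-test unadjusted and 6 after Benjamini-Hochberg. The value table gave 12 of 230 (8 and 4). Leaving out each pair in turn gave -0.62 to -0.50 for Slco1a4, -0.40 to -0.26 for Slco1a1, -0.26 to -0.15 for Slco1b2, -0.12 to -0.0025 and -0.17 to -0.06 for the Slc10a1 probes, and 7 to 11 calls. Slco1a4 passed in 10 of these 10 fits and Slco1a1 only without pair 2. With the pair as a replicate block and a dye coefficient, Slco1a4 was at -0.59 (adjusted p = 0.000327), and the arrays of a pair had a consensus correlation of -0.08. Alternatives on pixel medians, the pair 2 array, floored values and spots of high background were chosen after seeing the data.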
